A study of Mus musculus with 7 samples.

Results

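Blood endothelial cells, the lining of the blood vessels, were selected from a single-cell RNA sequencing atlas of the mouse seminal vesicle, the gland that makes most of the fluid of semen. A cell counted as a member when it held at least 500 genes and at most 10% mitochondrial UMIs (unique molecular identifiers, 1 per captured RNA molecule), had at least 1 UMI of at least 2 of Pecam1, Cdh5, Emcn and Cldn5, and had no UMI of Prox1, Mmrn1 or Ptprc. Pecam1, Cdh5, Emcn and Cldn5 are surface and junction proteins of endothelium, Prox1 and Mmrn1 mark lymphatic vessels, and Ptprc (CD45) marks leukocytes. Of 53352 deposited cells, 40342 met the limits on genes and mitochondrial UMIs, and 2078 of those (5.15%) were members. Another 244 cells met every condition except the absence of Prox1 and Mmrn1 and served as lymphatic endothelial cells for comparison, and 27 were left out for Ptprc alone and 13 for both reasons.

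The cells came from 23 male wild-type mice, each with its own count table. A first pool, made from C57BL/6J mice on chow, held 2 mice aged 3 months, and at 20 and at 28 months 2 mice on chow alone and 2 on chow with rapamycin. A second pool, made from FVB/NJ mice aged 3 months, held 2 mice on each of a control diet, caloric restriction, a high fat diet and a low protein diet. Single-mouse libraries were made from 3 more FVB/NJ mice of that age, called control 3, high fat 3 and low protein 3 here, and from a young (3 months) and an old (18 months) FVB/NJ individual on the control diet. Strain, pool and chow go together and cannot be told apart, and the 2 pools were counted with another version of the counting software than the single-mouse libraries. Members carried between 24638 and 2245949 UMIs per mouse in total, and the median member held 1920 UMIs against 3224 in all other cells. No 2 mice of a pool shared a cell barcode, and the largest number shared between any 2 tables was 30, between the young and the old individual.

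The libraries of the young and the old individual stood apart from the rest before any comparison was made. They gave 1005 and 481 members, so 71.5% of all members came from these 2 mice and 592 from the other 21. All cells of both are labelled as seminal vesicle, but the major secretory products of that gland were nearly absent. In the cells that were not endothelial, 6 genes of the secretory epithelium (Svs1, Svs2, Svs3a, Svs4, Svs5 and Svs6, seminal vesicle secretory proteins) took 0.00110% of UMIs in the young and 0.000611% in the old individual, against 62.2% to 63.3% in the 3 diet single-mouse libraries. Genes of epididymal epithelium, led by Gpx5, took 4.83% and 8.05% there and at most 5.06e-05% in the diet single-mouse libraries. For some of the results below that rest on these 2 libraries, the mice of the pools are given beside them.

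Blood endothelium is held together by junctions built from VE-cadherin (Cdh5) and claudin 5 (Cldn5), and its growth and survival depend on VEGF, angiopoietin and Notch signals. Its cells differ along the vessel. Arterial cells carry Notch ligands and gap junction proteins, capillary cells carry proteins that take up fatty acids and water, and the cells of small veins carry the adhesion molecules on which leukocytes roll and stop. In tissues with a tight barrier the cells also carry specialised solute carriers and efflux pumps, while leakier vessels carry the diaphragm protein Plvap. Gland epithelium such as that of the seminal vesicle draws its water, ions and fuel from such a capillary bed.

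Genes that had no part in the choice of cells gave the same identity as the label. Flt1, a VEGF receptor, was detected in 82.4% of members and 1.55% of the other cells, and Egfl7, a secreted endothelial factor, in 80.7% and 4.58%. The markers of the rule were found in 86.6% (Pecam1), 84.0% (Cdh5), 69.2% (Emcn) and 43.4% (Cldn5) of members, which follows from the choice. For Cldn5 this was 56.4% in the young and 50.7% in the old individual. It was 22.5% in the aging pool, 14.2% in the diet pool and 9.57% in the diet single-mouse libraries. At the edge of the rule, the 729 members with exactly 2 markers held a median of 9 of 26 further endothelial genes and 6571 CPM of them (counts per 1000000 UMIs), whereas the 1618 cells with 1 marker held a median of 1 and 561 CPM. With 3 and with 4 markers the summed level was 10486 and 10826 CPM. The members just inside the threshold were therefore far closer to cells with more markers than to cells just outside it, a description that carries no test since the markers chose the cells.

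Summed over all mice, the genes with the highest ratio of level in members to level in other cells, among genes of at least 100 CPM in members, were regulators and receptors of endothelium. Sox17, a transcription factor of arterial endothelium, stood at 270 CPM in members and 0.738 CPM in other cells. Flt1 stood at 1335 and 4.12 CPM, and Slco1a4, an organic anion transporter, at 102 and 0.342 CPM. The other 17 of the 20 highest ratios belonged to Grrp1, Dll4, Adgrl4, Cyyr1, Ptprb, Cdh5, Robo4, Cd300lg, Sema7a, Rbp7, Cd93, Pecam1, Sox18, Abcb1a, Myct1, Esam and Rasip1, from 233 for Grrp1 down to 120 for Rasip1. Of these 20 genes, 19 were higher in members than in other cells in 23 of 23 mice, and Slco1a4 was higher in 22. Cdh5 and Pecam1 are markers of the rule, so their place here and in the ranking that follows was set by the choice of cells. Since the young and the old individual gave most members, the ranking was repeated over the other 21 mice, a setting chosen after seeing the data, and 14 of the 20 genes were among its 20 highest. Sox17 came first with a ratio of 652 and Flt1 second with 532. Slco1a4 and Dll4, at 53.9 and 86.6 CPM in the members of these mice, lay under the minimum level, although Slco1a4 stood at only 0.0782 CPM in their other cells. Sox18, Abcb1a, Myct1 and Rasip1 kept the level but had lower ratios than the 20 highest, 57.3 for Abcb1a to 147 for Myct1, and Pcdh17, Tmem252, Erg, Scarb1, Egfl7 and Fabp4 came in. Cells with lymphatic markers shared some of the genes. Kdr, the main signalling receptor for VEGF, reached 678 CPM in members and 586 CPM in lymphatic endothelial cells, but Flt1 reached 89.8 CPM and Sox17 15.7 CPM in the latter. In 648 pericytes, the mural cells that wrap capillaries, Flt1 stood at 21.2 CPM and Kdr at 5.55 CPM. Pericytes were cells past the limits with at least 2 of Rgs5, Kcnj8, Abcc9 and Pdgfrb. They had no UMI of Pecam1, Cdh5, Emcn, Cldn5, Prox1, Mmrn1 or Ptprc, so low levels of endothelial genes in them follow in part from the choice.

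**Figure D1:**
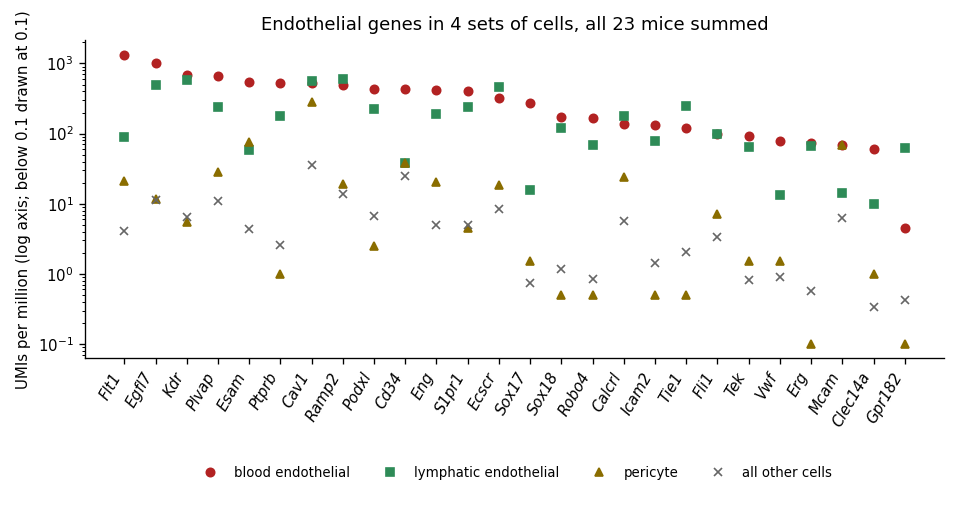
Level of 26 endothelial genes that the rule did not use, as CPM on a log axis, in blood endothelial cells (red circles), lymphatic endothelial cells (green squares), pericytes (brown triangles) and all other cells (grey crosses), with the 23 mice summed. Flt1 separates blood from lymphatic endothelial cells (1335 against 89.8 CPM), while Kdr is near the same level in both (678 against 586 CPM).

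Of the listed hormone receptor genes only 2, both for steroid hormones, are given here, read in the same way. Nr3c1, the glucocorticoid receptor, stood at 179 CPM in members and 24.1 CPM in other cells. Esr1, an estrogen receptor, stood at 6.47 CPM in members and 12.4 CPM in other cells. Scaled by TMM per mouse, the Nr3c1 level averaged 113 ± 38.0 CPM (SD, n = 8) in the aging pool, 201 ± 54.9 CPM (n = 8) in the diet pool and 188 ± 67.9 CPM (n = 3) in control 3, high fat 3 and low protein 3, and it was 174 CPM in the young individual and 170 CPM in the old. It was found in endothelial cells of every mouse with at least 10 members.

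Not every member was a clean endothelial cell. Altogether 517 members (24.9%) carried at least 1 UMI of Epcam, Dcn, Pdgfra, Pdgfrb or Rgs5, genes of epithelium, fibroblasts and mural cells. Secretory epithelium genes made up 15.2% to 29.5% of the members' UMIs in the 3 diet single-mouse libraries, with Svs5 the most abundant, 0.286% to 5.71% in the diet pool, 0.00107% in the young individual and 0.000432% in the old. In the aging pool 3 mice stood out, 28 months chow and rapamycin 2 with 35.3%, 28 months chow 2 with 26.8% and 3 months chow 2 with 15.9%, and the other 7 lay between 0.772% and 3.12%. Epididymis genes took 0.796% and 2.42% of members' UMIs in the young and the old individual and at most 0.0104% in the rest. Smooth muscle genes took 0.118% and 0.129% in these 2 individuals and 0.00312% to 0.00722% in the diet single-mouse libraries. No doublets were called by a program, and whether this RNA came from doublets or from free RNA in the droplets was not tested.

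Clustering of the members, with every library set centred on its own, gave 9 clusters. In 5 of them (1682 cells) the 26 endothelial genes lay above the level of the other members (mean log2 ratio 0.18 to 0.60), and in the other 4 (396 cells, 19.1%) they lay lower and genes of other cell types led. The names below rest on marker lists, and a cluster led by genes that go against its name was left unnamed. Cluster 4, with 196 cells, was vein-like. It was led by Ackr1, a chemokine carrier of venules, the selectins Selp and Sele, Csf3 and Vcam1, and 10 of 12 vein markers were raised at least 2-fold over the other members. Ackr1 stood at 1014 CPM in it and at no more than 19.5 CPM in any other cluster, and Selp, which leukocytes bind when they roll, at 5392 CPM. Cluster 2, with 355 cells, was artery-like. It was led by Stmn2, Fbln5, S100a4, Egfl8 and Ptprr, and 9 of 12 artery markers were raised, among them Gja5 and Gja4 (gap junction proteins), Bmx, Sema3g, Hey1 and the Notch ligands Dll4 and Jag1. Gja4 stood at 296 CPM and Sema3g, a repulsive guidance signal, at 244 CPM. In the same cluster 11 of 20 immediate early and stress genes were raised, with a summed level of 62290 CPM against 24973 CPM in the other members, and Fos was among its 10 leading genes.

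The other 3 clusters rich in endothelial genes were not named. Cluster 1, the largest with 625 cells, was led by Spock2, a proteoglycan of the matrix, Efhd1, Slc39a8, a zinc and manganese carrier, Slco1a4 and Csf2rb. Of its cells 589 (94.2%) came from the young and the old individual. Levels were pooled over mice, so the leading genes of a cluster made mostly of some libraries also hold the difference between libraries. Cluster 3, with 324 cells, was led by the heat shock genes Hspa1b, Hsph1 and Hspa1a, by Igfbp3, which binds insulin-like growth factors, and by Pde2a. In it 6 of 11 capillary markers were raised, Rgcc, Gpihbp1, Cd300lg, Btnl9, Aqp1 and Sgk1, but so were 7 of 9 pericyte markers. All but 9 of its cells came from the 21 mice other than the young and the old individual. The members it was compared with came mostly from these individuals, where Aqp1, Gpihbp1, Cd300lg, Rgs5 and Igfbp3 were lower, as given below. The raised levels in cluster 3 therefore also hold the difference between libraries. Cluster 5, with 182 cells, was led by Adamtsl2, Esm1, Btnl9, Col13a1 and Kcnk5, and 6 of 10 markers of growing vessel tips were raised, Esm1, Apln, Angpt2, Nid2, Lamb1 and Kcne3. It stood highest in Kdr, with 2506 CPM, and in Plvap, with 2303 CPM, and 179 of its cells came from the young and the old individual.

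Clusters 6 to 9 were kept as members but carry other tissue's genes. Cluster 6 (172 cells) was led by Postn, Mfap4, Col1a2, Col1a1 and Synpo2, with 7 of 7 fibroblast, 7 of 8 smooth muscle and 9 of 9 pericyte markers raised. It also held by far the most Fabp4, a fatty acid binding protein, with 12167 CPM, against 2624 CPM in the vein-like cluster and 375 CPM or less in the rest. Cluster 7 (120 cells) was led by Krt15, Lgals7, Ly6d, Krt14 and Adh7 of basal epithelium. Cluster 8 (59 cells), led by Lypd8, Ly6g5c, Fgg, Defb45 and Teddm1b, came from the young and the old individual alone, and cluster 9 (45 cells) was led by 9530053A07Rik, Pate9, Glb1l3, Rnase9 and Defb23. Their median UMI counts, 7596 and 8381, exceeded those of all other clusters, 1397 in the vein-like one to 3542 in cluster 7. The share of members in clusters 6 to 9 was 27.5% in the aging pool, 27.4% in the diet pool, 27.7% in the diet single-mouse libraries, 14.5% in the young and 18.1% in the old individual. Since the clusters were built from these genes, none of these differences carries a test. A finer resolution gave 12 clusters, the largest of 380 cells.

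**Figure D2:**
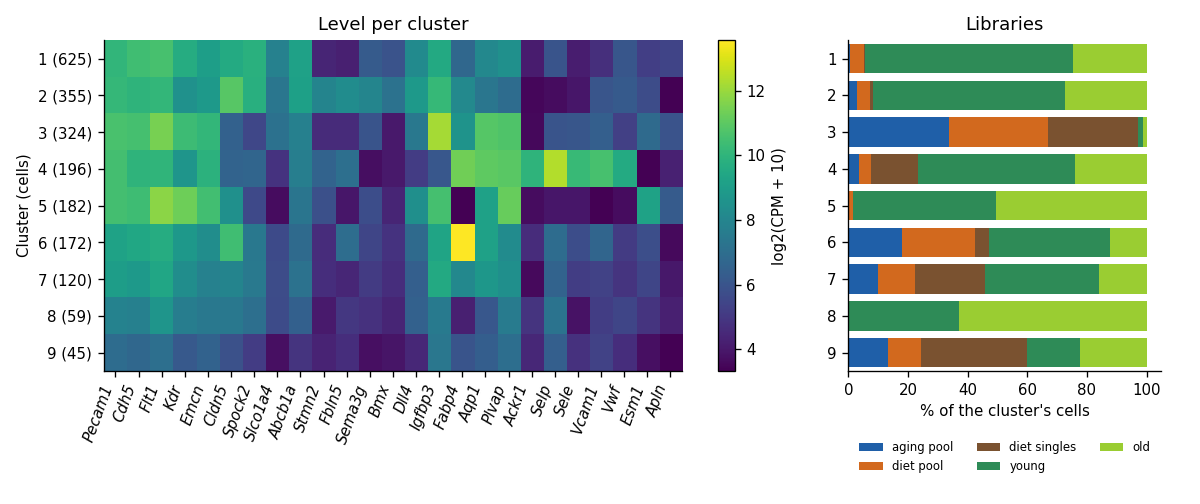
Left, level of 25 endothelial genes in each of the 9 clusters of members, as log2(CPM + 10) in colour, with the number of cells beside each cluster. Right, percent of each cluster's cells that came from each set of libraries. Selp, Sele and Ackr1 are bright in cluster 4 alone, and clusters 1 and 5 are made almost wholly of cells from those 2 individuals, young and old (94.2% and 98.4%).

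The share of members among cells past the limits varied widely between mice. In the young individual it was 10.97% (1005 of 9164 cells, 95% Clopper-Pearson interval 10.3% to 11.6%) and in the old individual 5.28% (481 of 9113, 4.83% to 5.76%). These intervals cover counting error only, and with 1 mouse each the difference between them has no replicate check. In the 3 diet single-mouse libraries the shares were 1.92%, 1.79% and 1.03% (mean 1.58% ± 0.480, SD, n = 3). In the diet pool they ran from 1.53% to 7.47% (mean 4.88% ± 2.12, n = 8) and in the aging pool from 1.41% to 8.53% (mean 3.73% ± 2.17, n = 10). Mice of the diet pool, which share strain and age with these 3 but not the library format, exceeded them by 3.29 points (p = 0.0364 in a two-sided exact permutation test, adjusted over 5 tests 0.182). The groups overlapped, since caloric restriction 1, at 1.53%, lay below control 3 and high fat 3. Cldn5, a marker of the rule, was found in 56.4% of members of the young and 50.7% of the old individual, and in 9.57% in the diet single-mouse libraries. Its part in the shares was not tested.

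Within the diet pool the control mice had 4.73% and 7.47% members, the high fat mice 6.15% and 6.90%, the low protein mice 5.45% and 4.60%, and the caloric restriction mice 1.53% and 2.18%. Both caloric restriction mice lay below the 6 others, but over the 4 diets the exact permutation test gave p = 0.0762 (F = 7.73, 2520 rearrangements, adjusted 0.190). The slope of the share on age was 0.568 percentage points per 10 months (permutation test, n = 10, p = 0.4996, adjusted 0.624). With rapamycin it averaged 4.50% ± 2.80 and without it 3.52% ± 1.91 (4 mice each, exact permutation test within age, p = 0.667, adjusted 0.667). C57BL/6J mice averaged 3.73% ± 2.17 (n = 10) and FVB/NJ mice 4.62% ± 2.90 (n = 13), a difference of -0.889 points (permutation test, p = 0.431, adjusted 0.624), and 3.98% ± 2.36 (n = 11) without the young and the old individual. No comparison of shares passed an adjusted p of 0.05. A share also moves with the number of other cells recovered, so more endothelial cells and fewer cells of the rest cannot be told apart.

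**Figure D3:**
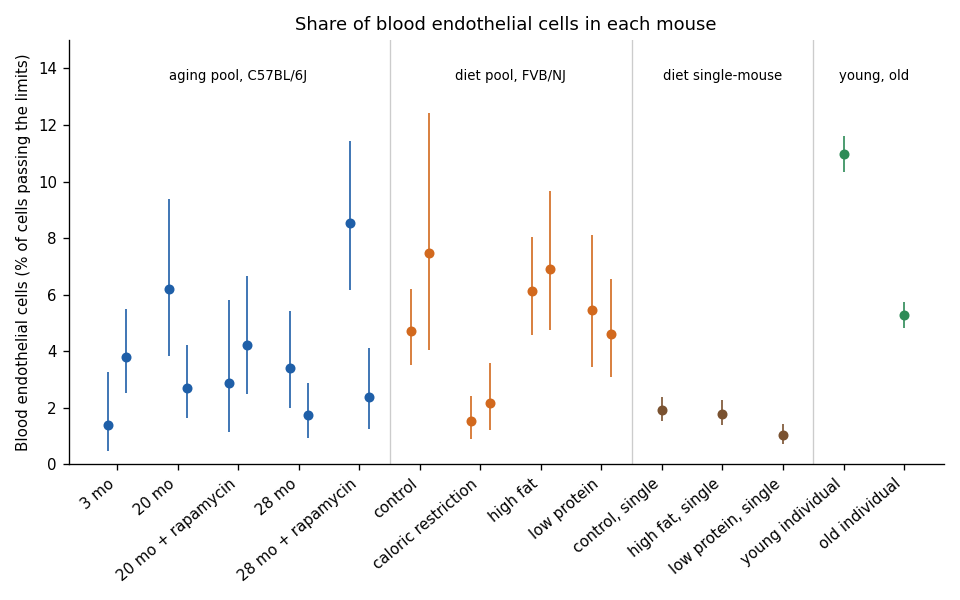
Percent of cells past the limits that were blood endothelial cells in each of the 23 mice, by group, with 95% Clopper-Pearson intervals (counting error only) as bars. The young individual (10.97%) lies above all others, the 2 caloric restriction mice (1.53% and 2.18%) lie below the rest of their pool, and control 3, high fat 3 and low protein 3 lie between 1.03% and 1.92%.

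The members of the young and the old individual were compared gene by gene with those of control 3, high fat 3 and low protein 3, all single-mouse libraries of FVB/NJ mice. The young and the old individual stood apart in tissue markers and in the run number in the names of their tables, so tissue and run cannot be told apart here. The young individual was 3 months old like the 3 diet mice, and without the old individual 120 genes were called higher and 92 lower, in a fit where the young individual stands alone and the spread is that of the 3 diet mice. UMIs were summed over the members of each mouse and tested with edgeR's quasi-likelihood test. Of 3104 genes tested, 110 were higher and 121 lower at an adjusted p under 0.05, which is 7.44% of those tested (3.54% higher and 3.9% lower). The groups did not overlap for 230 of the 231 called genes, but they did not overlap for 1097 of all 3104 genes either (35.3%). Of the called genes 84 were more abundant in the other cells of the same 5 libraries than in members, and 66 of the higher and 81 of the lower genes were not. To be tested, a gene had to reach 53.9 CPM in at least 2 libraries. Of the 110 higher genes 67 reached that in none of the 3 diet single-mouse libraries, and of the 121 lower genes 54 reached it in neither individual. Such genes passed the filter through the group where they were high, so the size of their difference is not fixed, and they are named as such below.

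Most of the largest differences were of RNA that other cells of these libraries held in greater amount, Hbb-bs below being the exception. The 10 largest rises were Gpx5, Spag11b, Defb20, Lcn8, Adam7, Cstdc2, Teddm1a, Defb47 and Clpsl2, most of them genes of epididymal epithelium, and Hbb-bs, a hemoglobin chain. Gpx5 stood at 4898 and 11446 CPM in members of the young and the old individual and at 40558 CPM in the other cells there. The 10 largest falls were Sva, Svs5, Spink1, Svs4, Svs2, Svs3a, Svs6, Svs3b, 9530003J23Rik and Pate4, most of them products of secretory epithelium. Svs5 stood at 5.22 and 0.601 CPM in these 2 mice and at 217950, 149680 and 89608 CPM in the members of the diet single-mouse libraries, where the other cells held 326800 CPM. All 6 secretory genes tested fell, 5 of 6 epididymis genes tested rose, and 5 of 5 smooth muscle genes tested rose, and each of them passed the filter through the group where it was high. Acta2, the actin of smooth muscle, stood at 339 and 328 CPM in members and at 1756 CPM in the other cells of the 2 individuals. The part of such RNA in the other differences was not tested, and the level in other cells is given below where it comes near that of members.

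Some genes of barrier transport differed in the young and the old individual. Of 10 solute carrier and water channel genes, 9 passed the filter on low counts. Of these, 3 rose (Slc7a5, Mfsd2a and Abcb1a), 1 fell (Aqp1) and 5 were not called, where 3.54% of all genes rose and 3.9% fell. Slc7a5 and Mfsd2a passed that filter only through the 2 individuals. The median log2 difference was 0.95 against 0.03 over all genes tested. With library size in place of TMM 6 rose and 1 fell, and by DESeq2 5 of 10 rose and 1 fell. Abcb1a, the efflux pump P-glycoprotein (chr5:8660077-8748575 in mm10, GENCODE vM21), stood at 405 and 263 CPM in members of the young and the old individual and at 109, 56.6 and 82.7 CPM in control 3, high fat 3 and low protein 3. The 2 groups did not overlap, the log2 difference was 2.08 (SE 0.33, edgeR adjusted p = 0.00578), and the other cells of the 2 individuals held 3.22 CPM. It was no longer called without high fat 3. No mouse of the diet pool exceeded 205 CPM and none of the aging pool 159 CPM. Mfsd2a, a lipid carrier known from the blood-brain barrier, stood at 104 and 84.2 CPM against 7.76, 0 and 0 CPM. The diet single-mouse libraries held 1 UMI of it in all, so it passed the filter through the 2 individuals. The size of its difference is not fixed, and no p-value is given for it. The other cells of the 2 individuals held 26.8 CPM. Slc7a5, the large neutral amino acid carrier, stood at 194 and 221 CPM in members of the 2 individuals and at 54.3, 34.0 and 33.1 CPM in the diet single-mouse libraries, which held 12 UMIs of it in all, so it too passed the filter through the 2 individuals. It was as abundant in the other cells of the 2 individuals (213 CPM).

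Spock2 and Slc39a8, outside the lists, were leading genes of cluster 1. Most cells of that cluster came from the young and the old individual, so higher levels there follow in part from the choice. Spock2 stood at 586 and 443 CPM in the young and the old individual and at 31.0, 0 and 33.1 CPM in the diet single-mouse libraries. In the diet pool it ran from 0 to 182 CPM with a median of 28.1, and in the aging pool from 0 to 49.7 CPM with a median of 5.10, so both individuals lay above every other mouse. Slc39a8 stood at 132 and 138 CPM against 7.76, 0 and 0 CPM, which was 1 UMI in the 3 diet single-mouse libraries together. Lef1, a transcription factor of the Wnt pathway, stood at 168 and 120 CPM against 15.5, 22.6 and 0 CPM, and caloric restriction 2 in the diet pool reached 161 CPM. Slco1a4, at 130 and 85.4 CPM against 69.8, 22.6 and 0 CPM, did not pass (adjusted p = 0.126). In the other cells of the 2 individuals Spock2, Slc39a8 and Lef1 stood at 34.4, 12.7 and 19.6 CPM. Slc39a8, Spock2 and Lef1 were picked after their values were seen. The diet single-mouse libraries together held 6 UMIs of Spock2 and 4 of Lef1. All of these genes passed the filter on low counts through the 2 individuals where they were high. The size of their differences is not fixed, and no p-value is given for them. Cldn5 stood at 772 and 566 CPM against 140, 56.6 and 99.2 CPM, but it was a gene of the rule, and no test is given for it.

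The promoters of 4 genes that set these libraries apart are printed here for comparison, Spock2 and Mfsd2a among the higher and Aqp1 and Igfbp3 among the lower genes (RefSeq, GRCm38.p6, 250 bases before to 50 bases after the start, each on the strand of its gene). Spock2 is at chr10:60106007-60106306 (plus strand), Mfsd2a at chr4:122961139-122961438 (minus), Aqp1 at chr6:55336049-55336348 (plus) and Igfbp3 at chr11:7213874-7214173 (minus). Capitals mark AGGAAG, the core read by ETS factors such as Erg and Fli1 of endothelium.
Spock2: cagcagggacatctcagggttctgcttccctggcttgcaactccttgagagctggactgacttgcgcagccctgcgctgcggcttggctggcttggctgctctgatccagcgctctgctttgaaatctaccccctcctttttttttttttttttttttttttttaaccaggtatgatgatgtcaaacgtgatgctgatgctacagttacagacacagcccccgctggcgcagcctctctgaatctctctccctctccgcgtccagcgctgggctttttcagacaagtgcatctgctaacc
Mfsd2a: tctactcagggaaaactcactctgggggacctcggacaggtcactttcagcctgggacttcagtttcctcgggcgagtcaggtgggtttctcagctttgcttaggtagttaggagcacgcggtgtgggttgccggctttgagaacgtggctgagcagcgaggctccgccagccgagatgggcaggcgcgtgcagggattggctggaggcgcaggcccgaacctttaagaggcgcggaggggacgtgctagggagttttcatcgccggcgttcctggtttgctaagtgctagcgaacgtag
Aqp1: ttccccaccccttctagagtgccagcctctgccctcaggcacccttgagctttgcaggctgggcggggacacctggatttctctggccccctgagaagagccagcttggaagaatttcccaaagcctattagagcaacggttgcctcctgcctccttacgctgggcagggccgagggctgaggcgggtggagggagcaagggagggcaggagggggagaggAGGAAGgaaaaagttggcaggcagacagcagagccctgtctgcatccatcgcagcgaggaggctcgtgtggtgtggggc
Igfbp3: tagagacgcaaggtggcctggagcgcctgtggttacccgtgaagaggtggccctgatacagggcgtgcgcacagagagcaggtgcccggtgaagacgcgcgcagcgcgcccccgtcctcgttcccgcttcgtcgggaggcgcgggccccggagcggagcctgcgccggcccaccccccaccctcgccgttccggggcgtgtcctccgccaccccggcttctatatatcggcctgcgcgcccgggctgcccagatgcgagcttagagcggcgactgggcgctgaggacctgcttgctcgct
Both strands were searched for AGGAAG and for ACAAAG, the core shared by SOX and by TCF and LEF factors. Of 32851 promoters of this length 35.4% hold the former and 18.7% the latter. Among the 4 genes there was 1 match, AGGAAG in Aqp1 at position -29 from the start, and the absence of a match says only that these letters are not in the window.

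Most capillary genes that could be tested were lower in the young and the old individual. Of 11 capillary markers 7 were tested and 5 fell (Gpihbp1, Fabp4, Fabp5, Cd300lg and Aqp1), where 3.9% of all genes did, with a median log2 difference of -1.84. Fabp5 passed the filter through the diet single-mouse libraries alone. Aqp1, the water channel of capillaries, stood at 290 and 235 CPM in the young and the old individual and at 1862, 1540 and 1555 CPM in control 3, high fat 3 and low protein 3 (log2 difference -2.55, SE 0.22, edgeR adjusted p = 0.000154). In the diet pool it ran from 775 to 2341 CPM (median 1436) and in the aging pool from 395 to 969 CPM (median 619), so the 2 individuals lay below every other mouse. Gpihbp1, which holds lipoprotein lipase on the capillary wall, stood at 164 and 240 CPM against 900, 781 and 662 CPM (log2 difference -1.84, SE 0.28, edgeR adjusted p = 0.00436), and the aging pool, from 216 to 984 CPM, overlapped the old individual. Plvap, the protein of the diaphragms in leaky vessels, stood at 460 and 507 CPM against 1381, 1494 and 877 CPM (log2 difference -1.26, SE 0.25, edgeR adjusted p = 0.0188). The aging pool began at 479 CPM, below the old individual, and of 7 genes of caveolae and diaphragms tested Plvap was the 1 that was called. Cd300lg was no longer called without the young individual, without control 3 or without high fat 3, and Plvap without control 3 or without high fat 3. Rgs5, the 1 pericyte marker of 9 that could be tested, was lower as well, at 72.2 and 56.5 CPM against 202, 283 and 116 CPM (log2 difference -1.56, SE 0.31, edgeR adjusted p = 0.0188, not called by DESeq2 or without high fat 3). Cluster 3, where Aqp1, Gpihbp1 and Cd300lg were raised, also had 7 of 9 pericyte markers raised, and the part of pericyte RNA in the capillary differences was not tested.

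Genes of fatty acid uptake varied widely between mice. Fabp4 stood at 104 and 60.7 CPM in members of the young and the old individual and at 869, 1630 and 281 CPM in the diet single-mouse libraries (log2 difference -3.40, SE 0.57, edgeR adjusted p = 0.00817). The diet pool ran from 264 to 5908 CPM (median 3560, mean 3356 ± 1914, SD, n = 8) and the aging pool from 0 to 16124 CPM (median 5627, mean 6261 ± 5208, n = 8). High fat 2 in the former and 28 months chow and rapamycin 2 in the latter were the lowest, so mice of 1 group differed several-fold. Cd36, the fatty acid transporter at the cell surface, was too low to be tested between the single-mouse libraries, with 10.0 and 2.41 CPM against 46.6, 102 and 0 CPM, but its median was 700 CPM in the aging pool and 427 CPM in the diet pool. Fabp4 and Cd36 were most abundant in cluster 6 (12167 and 1262 CPM), which carried fibroblast and mural genes, and the part of such cells in these levels was not tested. Fabp5 was as high in the other cells of the diet single-mouse libraries (128 CPM) as in their members (132, 45.3 and 149 CPM). Igfbp3 stood at 536 and 607 CPM against 2452, 2196 and 2845 CPM (log2 difference -2.01, SE 0.23, edgeR adjusted p = 0.00102). The 2 individuals lay below the lowest mouse of the aging pool (742 CPM) and of the diet pool (1090 CPM).

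**Figure D4:**
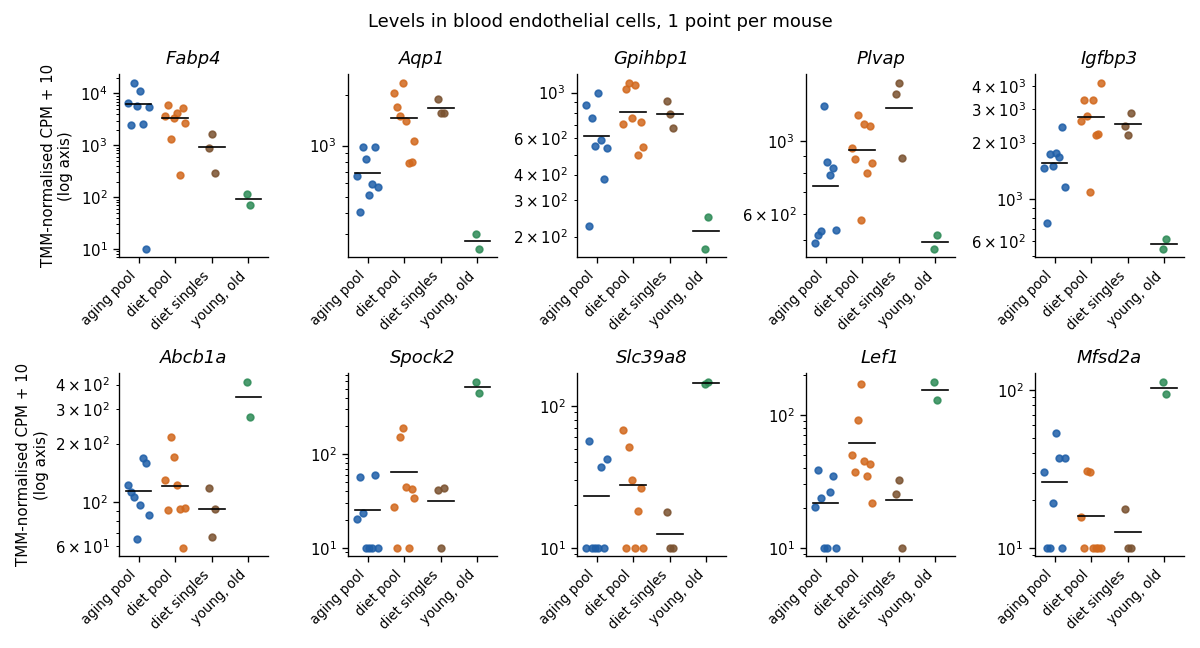
Levels of 10 genes in blood endothelial cells as TMM-normalised CPM + 10 on log axes, 1 point per mouse with at least 10 members and a black line at each set's mean, in the aging pool (8 mice), the diet pool (8), the diet single-mouse libraries (3) and the young and the old individual (2). Aqp1 and Igfbp3 are lowest, and Spock2 and Abcb1a highest, in the young and the old individual.

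A few arterial and Notch genes were called higher. Of 11 Notch pathway genes 6 were tested and 3 rose, Notch1, Dll4 and Hes1 (median of the 6 0.80), where 3.54% of all genes did. The receptor Notch1 stood at 485 and 331 CPM in the young and the old individual and at 194, 226 and 198 CPM in the diet single-mouse libraries (log2 difference 1.09, SE 0.25, edgeR adjusted p = 0.0333). Its ligand Dll4 stood at 266 and 162 CPM against 54.3, 90.6 and 116 CPM (log2 difference 1.51, SE 0.36, edgeR adjusted p = 0.0363), but caloric restriction 1 in the diet pool reached 287 CPM and overlapped them. Of 12 artery markers 8 were tested and 2 rose, Gja4 and again Dll4, while 6 were not called (median of the 8 0.32). Gja4, with 7 UMIs in the 3 diet single-mouse libraries together, passed the filter through the 2 individuals. Notch1, Dll4 and Gja4 were not called against the diet pool. Notch1, Dll4 and Hes1 were no longer called without the young individual, without control 3, without high fat 3 or without low protein 3, and Gja4 without the young individual, control 3 or high fat 3. The artery-like cluster held 326 of its 355 cells from the young and the old individual. Whether that makeup has a part in these differences was not tested.

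Of 10 vein markers tested, 4 fell, Ackr1, Sele, Vcam1 and Icam1, and 6 were not called (median of the 10 -0.69), where 3.9% of all genes fell. Vcam1, which holds leukocytes by their integrins, stood at 84.7 and 76.4 CPM in the young and the old individual and at 574, 645 and 281 CPM in the diet single-mouse libraries (log2 difference -2.55, SE 0.32, edgeR adjusted p = 0.00156). Ackr1 stood at 45.3 and 50.5 CPM against 404, 498 and 149 CPM (log2 difference -2.81, SE 0.38, edgeR adjusted p = 0.00232). This direction did not hold against the diet pool, where 5 of 8 mice had no UMI of Ackr1 and the difference was 0.68, and Vcam1 and Sele were not called against that pool. Icam1 was lost whichever of the 5 mice was left out, and Sele without the old individual, high fat 3 or low protein 3. Scaled by library size, Csf2rb of the same list was called higher. The vein-like cluster held 16.0% of members in control 3 and 23.2% in high fat 3, but 10.2% in the young and 9.77% in the old individual, and 5.26% in low protein 3. Selp, at 407 and 302 CPM against 1009, 1291 and 347 CPM, did not pass (adjusted p = 0.113).

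Other gene groups differed in part. Among vasoactive genes, Edn1 (endothelin 1) and Procr (the protein C receptor) rose and Ednrb, an endothelin receptor, fell by 1.97 on the log2 scale (SE 0.40, edgeR adjusted p = 0.0203). Edn1, at 136 and 129 CPM against 54.3, 0 and 0 CPM, passed the filter through the 2 individuals. It was no longer called without high fat 3, without low protein 3 or against the diet pool, and Ednrb without high fat 3 or by DESeq2. Procr stood at 476 and 339 CPM against 124, 204 and 99.2 CPM. Of 20 immediate early and dissociation stress genes tested, 4 rose (Fos, Fosb, Klf2 and Klf4) and 3 fell (the heat shock genes Hspa1a, Hspa1b and Hsp90aa1), where 3.54% of all genes rose and 3.9% fell. Hspa1b passed the filter through the diet single-mouse libraries alone. With library size in place of TMM 12 rose and 3 fell, and by DESeq2 12 rose and 2 fell. Without high fat 3 the calls of Fos, Klf2, Klf4 and Hsp90aa1 were lost, without low protein 3 those of Fos and Klf4, without control 3 that of Klf4, and against the diet pool those of Fosb, Klf4, Hspa1a and Hsp90aa1. Fosb stood at 1281 CPM in the other cells of the 2 individuals, beside 2154 and 1218 CPM in their members. Klf2, a factor induced by blood flow, stood at 1371 and 1132 CPM against 473, 442 and 182 CPM (log2 difference 1.84, SE 0.30, edgeR adjusted p = 0.00759), and Hspa1b at 33.7 and 24.7 CPM against 357, 657 and 810 CPM. Such genes also respond to how a tissue is taken apart, and handling cannot be told apart from tissue here. Of 14 interferon response genes tested 3 rose (Ifit1, Ifit2 and Irf1, of which Ifit2 passed the filter through the 2 individuals), against 9 of 14 when scaled by library size and 6 of 20 by DESeq2. Ifit1 was no longer called without the young individual, control 3 or high fat 3, Ifit2 without the young individual, high fat 3 or low protein 3, and Irf1 without control 3 or high fat 3. B2m, the light chain of class I antigen presentation, fell by 1.41 on the log2 scale (SE 0.22, edgeR adjusted p = 0.00585) and was as high in the other cells of the diet libraries (2739 CPM) as in the members (2755, 2219 and 2018 CPM). It was not called by DESeq2, without control 3, without high fat 3 or against the diet pool.

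None of the 11 basement membrane genes, 4 VEGF pathway genes and 3 angiopoietin pathway genes tested was called. Flt1 differed by -0.35 (SE 0.19, edgeR adjusted p = 0.314) and Kdr by -0.12 (SE 0.26, adjusted p = 0.854). Of the 25 tested endothelial genes 1, Plvap, was called, and their median log2 difference was -0.06, beside 0.03 over all genes. With library size in place of TMM, which assumes that most genes do not differ, the median of all genes was 0.55 and the split of 110 higher and 121 lower genes became 524 and 72. The endothelial list then had a median of 0.48 with 4 higher (Ecscr, Esam, Podxl and Sox17), and Sparc and Lamb2 of the basement membrane list were called higher. Under that scaling and under DESeq2, Plvap, Cd300lg, Sele and Icam1 were no longer called. Aqp1, Fabp4, Gpihbp1, Ackr1 and Vcam1 were still called lower and Abcb1a, Notch1, Dll4 and Hes1 still called higher. Some of these were lost without 1 mouse or against the diet pool, as given above. Fabp5, Mfsd2a, Slc7a5 and Gja4 passed the filter only through the group where they were high, so their calls under other scalings are not counted here. Leaving out high fat 3 lowered the count from 231 to 94.

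**Figure D5:**
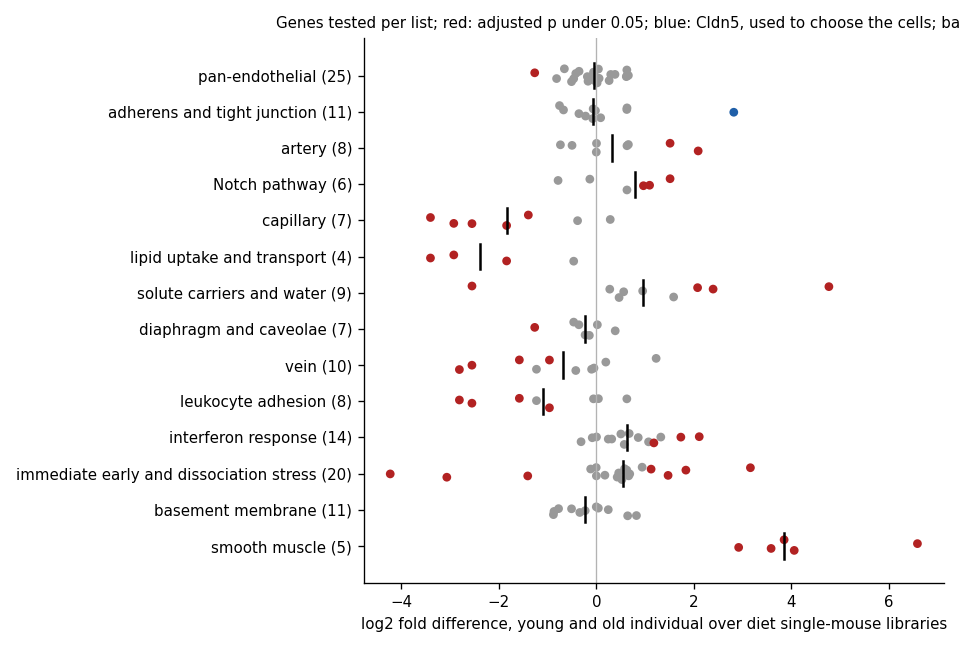
Log2 difference of each tested gene of 14 lists between the pair of young and old individuals and the 3 diet single-mouse libraries. Red points passed an edgeR adjusted p of 0.05, blue is Cldn5, which chose the cells, and black bars are list medians, with the number of genes tested in brackets. The capillary list lies to the left (median -1.84), the solute carrier list to the right (0.95) and the endothelial list around 0 (-0.06, or 0.48 when scaled by library size).

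Across age and rapamycin, which 8 mice of the aging pool with at least 10 members could address, no gene was called. Of 1889 genes tested 0 passed for age (0% of those tested, with 78 at an unadjusted p under 0.05 and 0 by DESeq2) and 0 for rapamycin (0%, with 61 unadjusted and 0 by DESeq2). Only 3 months chow 2 stood for the youngest age, since 3 months chow 1 had 5 members and 20 months chow and rapamycin 1 had 7. Per 10 months of age the estimates of 16 of 18 endothelial genes tested were positive (median log2 slope 0.27, beside 0.01 over all genes), as were those of 10 of 10 antigen presentation genes (0.33) and 13 of 16 interferon genes (0.37). None of these genes passed. That mouse was also 1 of the 3 rich in secretory epithelium RNA. For rapamycin, an inhibitor of the growth kinase mTOR, 5 of 17 genes of its target pathway were tested, with a median of 0.20, and 14 of 20 immediate early genes had a negative estimate (median -0.34). Genes of other cell types moved beside them, 6 of 6 of secretory epithelium higher in estimate (median 1.02), 4 of 4 of prostate-like epithelium higher (1.65) and 6 of 6 of basal epithelium lower (-1.27), and their part was not tested.

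The diets gave little more. Against the control diet no gene of 1850 was called for a high fat diet (0%, 31 at an unadjusted p under 0.05, 0 by DESeq2) or for caloric restriction (0%, 102 unadjusted, 0 by DESeq2). The 3 comparisons share the control mice. Of 8 capillary genes tested, 8 had a negative estimate with a high fat diet (median log2 difference -0.33), 6 with caloric restriction (-0.33) and 6 with a low protein diet (-0.25). Of 8 vein genes tested, 7 had a positive estimate with each of the 3, with medians of 0.70, 1.44 and 0.96. Fibroblast and secretory epithelium genes moved beside them, with medians of 0.78 and 0.67 with a high fat diet, 0.33 and -1.51 with caloric restriction and 0.79 and -1.41 with a low protein diet. With caloric restriction 6 of 6 basal epithelium genes (median -2.85) and 2 of 2 prostate-like genes (-1.69) were lower in estimate. There 16 of 20 immediate early genes (0.36) and the 1 smooth muscle gene tested (2.925) were higher. The part of these shifts was not tested. For a low protein diet 3 genes were called (0.162%), and all 3 were hemoglobin chains, which red blood cells make. Hbb-bs (chr7:103826534-103828096) stood at 43510 CPM in low protein 1 and 18473 CPM in low protein 2, at 0 CPM in low protein 3, and at 0 to 61.1 CPM in the other 6 mice of the diet pool. The log2 difference was 10.35 (SE 0.89), and for Hba-a1 it was 10.79 (SE 1.32) and for Hbb-bt 10.41 (SE 1.39). The size of these differences is not fixed, since most of the other mice stood at or near 0. All 3 genes passed the filter on low counts through low protein 1 and 2, so no p-value is given for them. Red blood cell genes took 8.19% and 2.89% of the members' UMIs in low protein 1 and 2, against 0.228% and 0.124% in the other cells of these mice. DESeq2 called none of the 3 and 1 other gene. Hba-a1 and Hbb-bt were no longer called without control 1, without control 2 or with at least 20 cells per mouse. Without low protein 1, without low protein 2 or without members that held RNA of other cell types the 3 genes did not pass the filter on low counts, so they were not tested there.

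Between the strains 1 of 2956 genes differed (0.0338%). Gdpd3, a lysophospholipase (chr7:126766334-126775649), stood at 362 to 686 CPM in the 8 FVB/NJ mice of the diet pool (mean 506 ± 132, SD), at 287, 577 and 463 CPM in the diet single-mouse libraries and at 413 and 271 CPM in the young and the old individual. In C57BL/6J mice it stood at 0 in 7 of 8 and at 27.6 CPM in 28 months chow 1. Over the 21 mice with at least 10 members the strains did not overlap. The fitted log2 difference at 3 months was -8.33 (SE 1.17). C57BL/6J was represented there by 3 months chow 2 alone, and the spread is that of the other mice of both pools. Gdpd3 passed the filter on low counts through the FVB/NJ mice, so no p-value is given for it. The size of such a difference against a level of 0 is not fixed by the fit, and strain, diet, pool and sequencing cannot be told apart. It was no longer called without control 1, without control 2 or without caloric restriction 2, when members needed 3 markers or without members that held RNA of another cell type. Conversely 34 genes were called without 20 months chow 1 and 29 without 20 months chow 2. Of 24 endothelial genes tested all 24 were lower in estimate in 3 months chow 2 (median -1.06, beside -0.02 over all genes), and none was called. In that mouse 15.9% of the members' UMIs were of secretory epithelium genes, against 0.286% to 5.71% in the diet pool, and the part of this RNA in the lower estimates was not tested.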

How the data were processed

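Single-cell RNA from dissociated seminal vesicles of 23 mice was captured with a droplet-based 3′ kit. The authors deposited raw UMI counts per gene and cell, made with 1 version of Cell Ranger for the pools and another for the single-mouse libraries, and the submitters' processing notes name mm10 and Seurat. Within each pool, a mouse's condition was taken from the name of its table, which matched the deposited multiplexing tags in all 18 tables (lowest share of the leading tag 74.3%). Counts are of 3′ tags and were not divided by gene length.

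Genes shared by both references (30406) were kept. UMIs were summed over members per mouse with at least 10 members, genes were filtered with filterByExpr, and edgeR 4.0.16 (TMM, quasi-likelihood test, Benjamini-Hochberg adjustment) was run in R 4.3.3, with DESeq2 1.42.0 as an alternative. The fits were tested on simulated data, where the strain fit recovered the smallest share of changed genes. Age and rapamycin were fitted together, as were the 4 diets, whose fit had library format as a covariate. Shares were compared over mice with permutation tests (exact, or 100000 resamples), adjusted over 5 tests. Members were clustered with leidenalg 0.10.2 on Pearson residuals of 1000 genes centred within each library set. No separate cultures or litters are labelled, so p-values measure the spread between mice.

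Alternatives were another normalisation, no filter, stricter cell rules, other cell minimums, a replicate block and leaving out each mouse. The members, gene lists and comparisons were chosen with earlier results of these data known. Named genes were those of the lists that passed or were most abundant, the 10 largest rises and falls per comparison, the 20 highest ratios and the 5 leading genes of each cluster. Lef1 was added after its values were seen. The multiplexing tag rows were left out of all tests.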

Additional observations from a re-analysis of the deposited data

Results flagged for a closer look

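Among the 74 groups of mice checked for a single value far from the rest (a gap to the nearest mouse above Dixon's 95% value), 12 were found. Chance gives about 1 in 20, but that rate does not hold for lists with a median of 0, here epididymis and Schwann cell genes. For epididymis genes every other mouse of the pool stood at 0, so any value above 0 was flagged. All 12 are summed TMM-normalised CPM of a gene list in members. In the aging pool, proliferation genes summed to 690 CPM in 28 months chow 1 (median of the pool 264), basement membrane genes to 6084 CPM in the same mouse (median 2776), prostate-like epithelium genes to 76310 CPM in 28 months chow and rapamycin 2 (median 8505), red blood cell genes to 642 CPM in 20 months chow 1 (median 2.74), Schwann cell genes to 94.0 CPM in 20 months chow 2 (median 0) and epididymis genes to 16.3 CPM in 3 months chow 2 (median 0). In the diet pool, proliferation genes summed to 581 CPM in control 1 (median 356), secretory epithelium genes to 53020 CPM in high fat 1 (median 4576), prostate-like genes to 4153 CPM in high fat 1 (median 525), Schwann cell genes to 26.2 CPM in high fat 1 (median 0), epididymis genes to 90.6 CPM in high fat 2 (median 0) and red blood cell genes to 69280 CPM in low protein 1 (median 34.9). These mice held 12 to 50 members, and most of the values are of lists for other cell types than endothelium.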

How the results depend on the processing

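Counts of called genes depended on the filter and the scaling, and the cause was not tested. Without a filter on low counts the calls were 33 for age, 17 for rapamycin, 2 for a high fat diet, 20 for a low protein diet, 36 for caloric restriction, 92 between strains (87 higher, 5 lower) and 531 between the young and old individuals and the diet single-mouse libraries. Without members that held RNA of another cell type they were 20 for age, 19 for rapamycin, 0 for low protein and 0 for strain. DESeq2 gave 1 for low protein, 12 for strain (11 higher) and 445 between the single-mouse libraries (373 higher, 72 lower), library size in place of TMM gave 596 for the last (524 higher, 72 lower), members with at least 3 markers gave 152 and 0 for strain, and at least 20 cells per mouse gave 1 for low protein and 58 for strain. With the diet pool as reference for the young and the old individual, chosen after seeing the data, the count was 484. There Ackr1 (0.68), Eif4ebp1 (0.042), Hba-a1 (-3.69) and Hbb-bs (-3.89) turned direction. Also chosen then, leaving out genes higher in other cells gave 101 higher and 116 lower, and leaving out the 1 mouse of 3 months gave 0 for age. Leaving out 1 mouse in turn gave 0 to 3 calls for low protein, 0 to 34 for strain, 94 to 235 between the single-mouse libraries, and 0 to 0 for age, rapamycin, high fat and caloric restriction.

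For shares no setting passed except 1. Leaving out 1 mouse in turn gave -1.42 to -0.360 points for strain, 0.0469 to 0.937 points per 10 months for age, -0.555 to 2.52 points for rapamycin, F of 3.21 to 35.6 for the diets and 2.92 to 3.77 points for the diet pool over the single-mouse libraries. The rapamycin difference turned to -0.555 without 28 months chow and rapamycin 1, and the last passed (exact permutation test, adjusted p = 0.0417) without caloric restriction 1. The differences between replicate numbers 1 and 2 correlated at 0.697 between 28 months chow and 28 months chow and rapamycin. In each of these groups number 2 was a mouse rich in secretory epithelium RNA. Between the other groups the correlations ran from -0.184 to 0.136. A replicate block gave 1 call for age, 0 for rapamycin, 0 for high fat, 3 for low protein and 0 for caloric restriction. Fits with at least 20 cells per mouse for age, rapamycin and caloric restriction, caloric restriction without RNA of other types, and strain without 3 months chow 2 could not be made. Members numbered 5 to 50 per mouse of the pools.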
